A study of Mus musculus with 2 samples.

Results

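LINE-1 elements whose names start with L1Md or L1_Mus are, by their annotation names, the LINE-1 families of the mouse and the genus Mus. Their RNA was compared between control mouse embryonic stem (ES) cells and cells treated to delete the gene of the histone chaperone Daxx. The families were chosen by name within the L1 superfamily, with no filter on their values. There were 10 of them, 6 L1Md and 4 L1_Mus, among 112 LINE-1 families and 634 transposable element families in all. Together they hold 202669 annotated copies, or 23.5% of the annotated LINE-1 copies.

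LINE-1 elements copy themselves through an RNA. A full-length copy has its own promoter and codes for an RNA-binding protein (ORF1p) and for an endonuclease and reverse transcriptase (ORF2p), while most copies in a genome are shortened at their start and cannot move. Mouse LINE-1 promoters are built of short repeated units called monomers, and the L1Md types are named after their monomers. The A, T (also written TF) and Gf types include the copies that still move in laboratory mice, and the F type is older. In ES cells, LINE-1 copies are held down by DNA methylation, by H3K9 methylation and by other chromatin factors. Daxx works with Atrx to place the histone variant H3.3 in heterochromatin and at repeats.

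Both cultures were ES cells of the genotype Daxx fl/fl; RosaCreERT on a B6/129 background, grown on inactivated feeder cells, so the control carries the floxed Daxx allele and the inducible Cre as well. The Daxx-deleted culture was given 4-hydroxytamoxifen (4-OHT) at 1 µM during 48 h, with 3 more days without it, and the control culture was given DMSO. With 1 library per condition there is no replicate error and no test, and every difference is one between these 2 libraries. Cells given 4-OHT without a floxed Daxx are not part of the design, so an effect of the drug or of Cre and an effect of losing Daxx cannot be told apart. The table holds 0 genes, so the loss of Daxx RNA, ES cell markers and the share of feeder cells were not analysed here.

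Levels are RPKM, reads scaled by element length and by the library's exonic reads. All 10 families were low: they ran from 0.00329 to 0.0254 RPKM in control cells and from 0.00521 to 0.0462 RPKM after Daxx deletion. The median of all 634 families was 0.0209 RPKM in control cells and 0.0269 RPKM after Daxx deletion. A log2 change is the Daxx-deleted value over the control value on the log2(RPKM + 0.001) scale, which understates the change of low families, and a plain ratio is the quotient of the deposited values. The table as a whole was shifted upwards: its median log2 change was 0.18, and values relative to that median are given beside the main ones. The sequencing depth is unknown, and multi-mapped reads were kept. Near-identical copies of L1Md_A, L1Md_T and L1Md_Gf may thus hold the same reads, and these families are not independent measurements.

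After Daxx deletion the A, T and Gf types, 3 of the 10 families, were higher by 2-fold or more, and none of the 10 was 2-fold lower. L1Md_A, with 15286 copies, had 0.0201 RPKM in control cells and 0.0462 RPKM after Daxx deletion, a ratio of 2.30. L1Md_T, with 22506 copies, stood at 0.0184 and 0.0443 RPKM, a ratio of 2.41. L1Md_Gf, with 819 copies the smallest of the 10, stood at 0.0139 and 0.0354 RPKM, a ratio of 2.56. All 3 were thus high in the same library and by a similar factor, with far fewer copies in Gf, but they may hold the same reads. Their log2 changes were 1.16, 1.23 and 1.29, a spread of 0.13 among them. Relative to the median family they were 0.99, 1.05 and 1.12, so L1Md_A then fell just short of 2-fold. For all 634 families, 9.31% were at least 2-fold higher and 2.05% at least 2-fold lower at this pseudocount.

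As differences in RPKM, which is a read density and not an amount of RNA, L1Md_A gained 0.0261 RPKM, L1Md_T 0.0259 RPKM and L1Md_Gf 0.0216 RPKM. The 3 families moved up the order of levels. By level, L1Md_A went from rank 328 to rank 194 of the 634 families, L1Md_T from 350 to 199 and L1Md_Gf from 403 to 240. By log2 change they were at ranks 46, 44 and 42 of the 634. Among the 112 LINE-1 families they were at ranks 5, 4 and 3. The families above them in that order were L1MEg2, which was listed at 0 in control cells and had 0.0145 RPKM after Daxx deletion with 106 copies, and L1MCb, at 0.00122 and 0.00445 RPKM with 729 copies. Both were named after their values were seen.

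**Figure D1:**
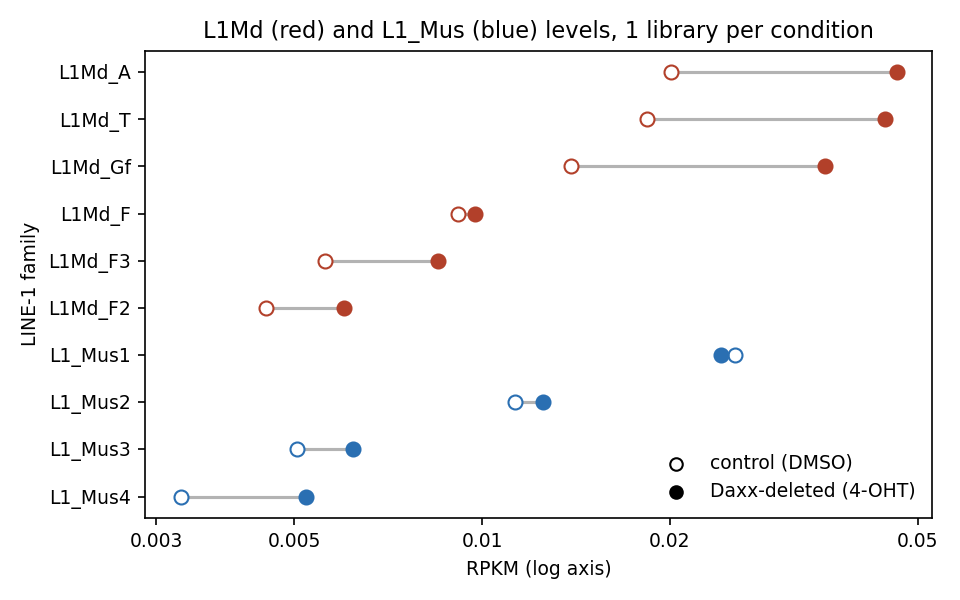
RPKM (log axis) of the 6 L1Md families (red) and the 4 L1_Mus families (blue) in the control library (open circles) and the Daxx-deleted library (filled circles), with 1 library per condition and no error bars. L1Md_A, L1Md_T and L1Md_Gf move from between 0.0139 and 0.0201 RPKM to between 0.0354 and 0.0462 RPKM, while L1_Mus1 lies slightly lower in the Daxx-deleted library.

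The F types, named after the older monomer, were also higher in the Daxx-deleted library, but none of the 3 reached 1.5-fold with the pseudocount of 0.001 RPKM. L1Md_F, with 5564 copies, had 0.00914 RPKM in control cells and 0.00974 RPKM after Daxx deletion, a ratio of 1.07. L1Md_F2, with 64168 copies the most numerous family of all 112 LINE-1 families, stood at 0.00451 and 0.00599 RPKM, a ratio of 1.33. L1Md_F3, with 14569 copies, stood at 0.00559 and 0.00849 RPKM, a ratio of 1.52. These 3 were low in both libraries, and the Daxx-deleted value of each lay below the control value of every one of the A, T and Gf types. The log2 changes were 0.084 for L1Md_F, 0.35 for L1Md_F2 and 0.53 for L1Md_F3. Relative to the median family they were -0.093, 0.17 and 0.35, so the direction of L1Md_F turned. The ratio of 1.52 for L1Md_F3 passed 1.5-fold with no pseudocount or one of 0.0001 RPKM, but not with 0.001 RPKM.

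Within L1Md the families therefore formed a group of 3 at 1.16 to 1.29 and a group of 3 at 0.084 to 0.53 on the log2 scale. The summed RPKM of A, T and Gf was 0.0523 in control cells and 0.126 after Daxx deletion, a ratio of 2.41. The summed RPKM of the F types was 0.0192 and 0.0242, a ratio of 1.26. The F types have 84301 copies, and the other 3 have 38611.

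Of the 4 L1_Mus families, 3 were higher and 1 was lower after Daxx deletion, and none reached 1.5-fold with the pseudocount of 0.001 RPKM. Of all 634 families 72.9% were higher and 19.1% reached 1.5-fold, so these counts lay near the background. L1_Mus1, with 27181 copies, had 0.0254 RPKM in control cells and 0.0242 RPKM after Daxx deletion, a ratio of 0.951. It was the highest of the 10 families in the control. L1_Mus2, with 18665 copies, stood at 0.0113 and 0.0125 RPKM, a ratio of 1.11. L1_Mus3, with 23161 copies, stood at 0.00506 and 0.00621 RPKM, a ratio of 1.23. L1_Mus4, with 10750 copies, stood at 0.00329 and 0.00521 RPKM, a ratio of 1.58, which passed 1.5-fold with no pseudocount or one of 0.0001 RPKM, but not with 0.001 RPKM. The order of the 4 by control level, from L1_Mus1 down to L1_Mus4, was the reverse of their order by log2 change, which was -0.069, 0.14, 0.25 and 0.53. The control value enters both orders. Over all L1Md families the order was not reversed, since their 3 highest control levels had the 3 highest changes. Within A, T and Gf it was reversed, and L1Md_F, the highest F type in the control, had the lowest change of L1Md. Relative to the median family the 4 changes were -0.25, -0.036, 0.075 and 0.36, so the direction of L1_Mus2 turned.

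Set side by side, the 2 name groups had overlapping control levels, with the higher median in L1Md. The median control level was 0.0115 RPKM for the 6 L1Md families and 0.00817 RPKM for the 4 L1_Mus families. In the Daxx-deleted library the medians were 0.0226 and 0.00937 RPKM. The median log2 change was 0.84 for L1Md and 0.20 for L1_Mus, a difference of 0.65, and relative to the median family the medians were 0.67 and 0.020. The L1Md median lies in the gap between its groups of 3 and depends on which families are kept. With at least 1000 copies, which leaves out L1Md_Gf, it was 0.53 and the difference from L1_Mus was 0.33. With at least 10000 copies, which leaves out both L1Md_Gf and L1Md_F, it was again 0.84 and the difference 0.65. The ranges of the 2 name groups overlapped, since L1Md_F had a lower change than L1_Mus2, L1_Mus3 and L1_Mus4. Whether the groups differ beyond the spread between cultures could not be tested with 1 library per condition. Over all 10 families the median was 0.44, and 9 of 10 were higher after Daxx deletion, against 72.9% of all families. Relative to the median family 7 of 10 were higher, against 50.0% of all families by construction.

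The make-up of the summed RPKM of the 10 families shifted towards the A, T and Gf types. They held 44.9% of it in the control and 63.5% in the Daxx-deleted library, with 19.1% of the copies. The L1_Mus families held 38.6% and 24.3%, with 39.4% of the copies. Of the 0.0817 RPKM by which the sum of the 10 was higher, 90.1% came from A, T and Gf and 3.79% from L1_Mus. A scale added after the values were seen multiplies RPKM by copies. On it, A, T and Gf held 33.1% in control cells and 51.2% after Daxx deletion, and L1_Mus 47.8% and 32.2%. Element lengths were not used, so this product is neither a read count nor an amount of RNA. In the control L1_Mus1 was above L1Md_A, and the ratio of L1Md_A to L1_Mus1 was 0.790. In the Daxx-deleted library it was 1.91, and L1Md_A, L1Md_T and L1Md_Gf were the 3 highest of the 10. The other 7 families kept their order among themselves.

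When each family's RPKM was weighted by its number of copies, so that numerous families count more, the mean of L1Md was 0.00938 RPKM in control cells and 0.0187 RPKM after Daxx deletion, a ratio of 1.99. The mean of L1_Mus was 0.0132 and 0.0137 RPKM, a ratio of 1.04. So the copy-weighted level of L1Md was below that of L1_Mus in the control and above it in the Daxx-deleted library. Without L1Md_F2, which carries the largest weight, the L1Md ratio was 2.21. Without L1_Mus1 the L1_Mus ratio was 1.20. The number of copies by itself did not order the changes: Spearman's rho between copies and log2 change was -0.38 over the 10 families and 0.011 over the 112 LINE-1 families, as a description over families that share 2 libraries and may share reads.

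**Figure D2:**
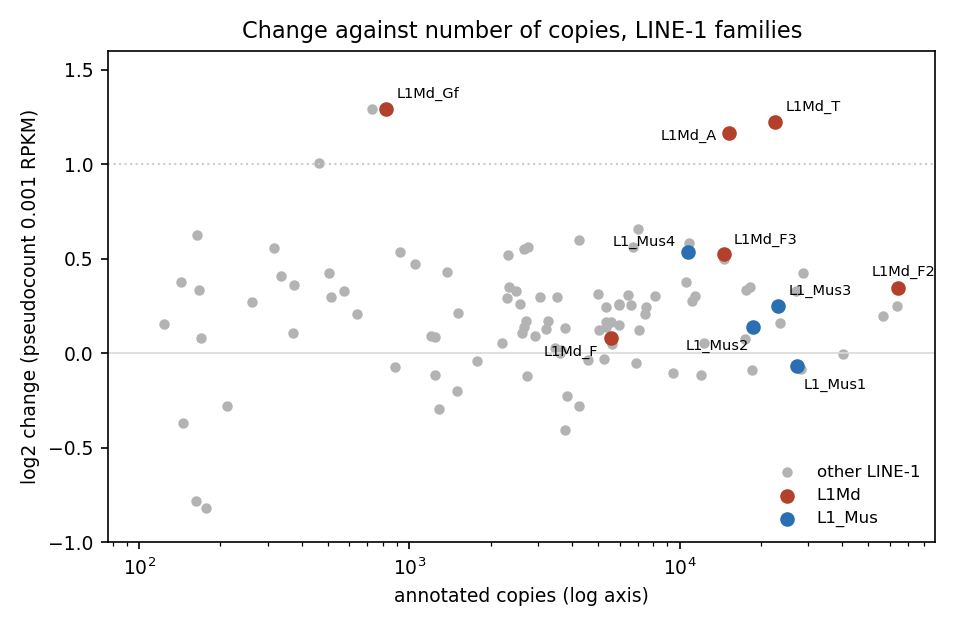
Log2 change (vertical axis, pseudocount 0.001 RPKM) against the number of annotated copies (log axis) for the LINE-1 families with at least 100 copies, with L1Md in red, L1_Mus in blue and other LINE-1 families in grey; the dotted line marks 2-fold, and 1 of the 107 families, L1MEg2, lies above the axis. L1Md_A and L1Md_T stand apart from the other families with over 10000 copies, L1Md_Gf lies at 819 copies, and L1Md_F2 with 64168 copies lies at 0.35.

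The rest of the LINE-1 superfamily gives the setting. The Lx families are LINE-1 elements of the murine rodents that are older than L1Md. Of their 16 families, 13 were higher in the Daxx-deleted library, 1 reached 1.5-fold, and the median log2 change was 0.25. Lx5, the highest in the control, stood at 0.0389 RPKM there and at 0.0366 RPKM after Daxx deletion. At the floor used for naming, a mean level from 0.01 RPKM and 100 copies or more, the Lx families ran from -0.11 for Lx2B to 0.25 for Lx8. The Lx changes thus lay in the range of the L1_Mus families, apart from Lx2B and Lx5 below it and Lx4B just above it, which stood at 0.00581 and 0.00921 RPKM. The 7 L1VL, L1_Mur and L1_Rod families had a median of 0.28, and 1 of them, L1VL2, passed 1.5-fold, at 0.00579 and 0.00928 RPKM. L1_Mur1 was higher in level than any of the 10 families in both libraries, at 0.0678 and 0.0629 RPKM, and L1_Mur2 stood at 0.0202 and 0.0189 RPKM. L1_Mm, a mouse LINE-1 family that the name rule leaves out, stood at 0.00906 and 0.0132 RPKM, a log2 change of 0.50.

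The old mammalian LINE-1 families, named L1M, L1P or HAL1, had a median log2 change of 0.17 over 77 families, and 3 of these were at least 2-fold higher. At the floor, L1M was the highest of 58, at 0.0152 and 0.0316 RPKM with 464 copies, and L1P5 was the lowest, at 0.0243 and 0.0134 RPKM with 177 copies. L1M2b had the highest control level, 10.1 RPKM with 18 copies, against 10.5 RPKM after Daxx deletion. L1M2b alone thus dominated the summed LINE-1 RPKM of 13.4 in the control, and the 10 families made up 0.868% of the summed LINE-1 RPKM in control cells and 1.42% after Daxx deletion. With RPKM multiplied by the number of copies, which leaves out element length, the shares were 14.3% and 19.7%. Of the 74 LINE-1 families outside the 10 with at least 1000 copies, 0 were 2-fold higher, 3 were 1.5-fold higher, and the median was 0.17. The LINE families of other superfamilies, L2, CR1 and RTE, had a median of 0.13 over 10 families. Among these, L4 stood at 0.252 and 0.262 RPKM, L3 at 0.233 and 0.227 RPKM, and CR1_Mam, with 266 copies, at 0.144 and 0.244 RPKM.

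**Figure D3:**
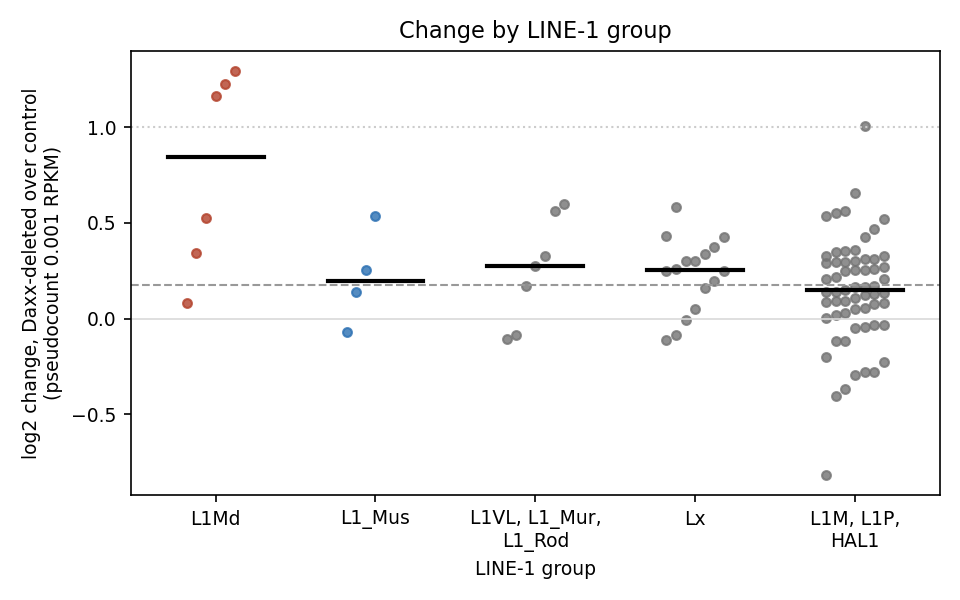
Log2 change (pseudocount 0.001 RPKM) of single LINE-1 families by name group, for families with at least 1000 copies or at the floor of 0.01 RPKM and 100 copies; black bars are medians, the dashed line is the median of all 634 families (0.18) and the dotted line is 2-fold. L1Md splits into 3 families above the dotted line and 3 below it, while the medians of L1_Mus (0.20), L1VL, L1_Mur and L1_Rod (0.28), Lx (0.25) and the 61 old families shown (0.15) lie near the dashed line.

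Low families with few copies give extreme ratios more easily, so the counts were set beside those of better covered families. At the floor, which 5 of the 10 passed (L1Md_A, L1Md_T, L1Md_Gf, L1_Mus1 and L1_Mus2), 5.28% of 436 families were at least 2-fold higher, and 3 of the 5 were. With at least 1000 copies, 3.42% of 292 families were 2-fold higher, and these 10 families included L1Md_A and L1Md_T. The other 8 were LTR elements, among them IAPEz-int and MERVL-int. With at least 10000 copies, a limit chosen after the values were seen, 2.70% of 74 families were 2-fold higher, and the 2 were L1Md_A and L1Md_T. At 1.5-fold, 19.1% of all 634 families were higher, and 3 of the 10 were, the same L1Md_A, L1Md_T and L1Md_Gf.

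Endogenous retroviruses named in the study's title give a scale for these differences. IAPEz-int, which holds the coding part of intracisternal A-particles, had a ratio of 2.74, close to the 2.30 to 2.56 of the A, T and Gf types. Its difference was 0.128 RPKM, against at most 0.0261 RPKM for a family of the A, T and Gf types and 0.0736 RPKM for these 3 together. IAPEz-int has 7666 copies, while L1Md_A and L1Md_T have more and L1Md_Gf has fewer. Multiplied by the number of copies, the difference was 980 for IAPEz-int and 1000.2 for A, T and Gf together, in RPKM times copies. For A, T and Gf together, the order of the differences thus depends on the scale. On the copy scale the values lay close, and these 3 families may hold the same reads. Element lengths were not used, so these products compare neither reads nor amounts of RNA. MERVL-int, active in the early embryo, had a control level of 0.0198 RPKM, like that of L1Md_A, and reached 0.101 RPKM against 0.0462 RPKM for L1Md_A. MMETn-int, of the early transposons, had a ratio of 1.00 at a far higher level, 2.39 RPKM in the control.

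The 2-fold counts depend on the pseudocount because the levels are so low. With 0.0001 RPKM the log2 changes of L1Md_A, L1Md_T and L1Md_Gf were 1.20, 1.27 and 1.35. With 0.01 RPKM they were 0.90, 0.94 and 0.93, and 0 of the 10 families reached 2-fold, against 3.15% of all 634 families at that pseudocount. With 0.1 RPKM, above every level of the 10 families, they were 0.28, 0.29 and 0.25, and 0.315% of all families reached 2-fold. At a threshold of 3-fold, with 0.001 RPKM, 5.05% of all families and 0 of the 10 were higher. At each of the 4 pseudocounts these 3 had the highest changes of the 10 and L1_Mus1 had the lowest, which was below 0. That order is no check, since it follows from the deposited values at any pseudocount. These 3 had both higher ratios and higher control levels than every other family that rose, and only L1_Mus1 was lower after Daxx deletion.

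**Figure D4:**
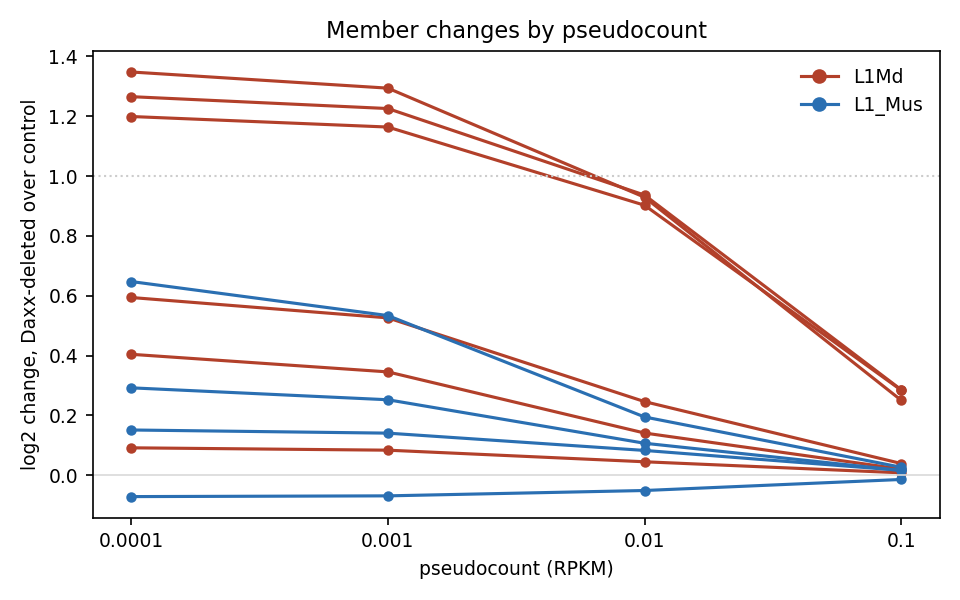
Log2 change of each of the 10 families (L1Md in red, L1_Mus in blue, 1 line per family) at pseudocounts of 0.0001, 0.001, 0.01 and 0.1 RPKM; the dotted line marks 2-fold. The 3 upper lines, L1Md_A, L1Md_T and L1Md_Gf, pass below 2-fold at 0.01 RPKM. They stay above the other 7 lines at each pseudocount, which follows from their ratios and control levels.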

How the data were processed

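Total RNA was sequenced from TruSeq RNA libraries, per the labels' protocols. Per the file headers, the authors' alignment was to mm9 with JAGuaR 2.1, built on BWA with junctions of Ensembl 67, and multi-mapped reads were kept. BWA 0.7.10 is named in the submitters' processing notes. The deposited RPKM values are scaled to exonic reads of protein-coding genes, without mitochondrial and ribosomal proteins and the top 0.5% of exons, so they also move with that total. The deposited count of elements per family is a number of annotated copies and not of reads. The assignment of shared reads, the repeat annotation and any use of strand are not given in the sources of this work.

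Columns were matched to the samples by treatment. Nothing was fitted or tested. Log2 changes used a pseudocount of 0.001 RPKM, and 0.0001, 0.01 and 0.1 RPKM, limits on level and copies, thresholds of 1.5-fold and 3-fold and subtraction of the median were tried. All 10 families are named; from each comparison list the highest control level and the highest and lowest change at the floor are named, with 3 retroviral families. The members and lists were chosen with earlier results of these data known. To look for whole reads, low values were compared between libraries. A ratio was counted as fitting when it lay within 0.4% of a ratio of whole numbers up to 8. The scaling between libraries with the largest number of fitting ratios was 0.687 (15 of 65 families), 0.906 (16 of 65) or 1.22 (12 of 43). It depended on which low families were used, so depth was not recovered and no interval is given. The tools were matplotlib 3.10.9, pandas 2.3.3, numpy 2.4.6 and Python 3.11.15. Repeat sequences and coordinates were not used here.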

Additional observations from a re-analysis of the deposited data

How the results depend on the processing

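With 1 library per condition a ratio or count is called moved past 1.5-fold, and a log2 change when it shifted by over 0.58, or by over 0.1 and by over 1.5 times or changed sign. No alternative gave a 2-fold lower family, and none turned the sign of a median. A pseudocount cannot turn the sign of a single family's change, so that such signs stayed is no check. With 0.01 RPKM the median of the 10 families fell from 0.44 to 0.17, that of L1_Mus from 0.20 to 0.095, and the count of 2-fold higher families from 3 to 0. With 0.1 RPKM the medians were 0.023 for the 10 families, 0.14 for L1Md and 0.016 for L1_Mus, the difference between L1Md and L1_Mus was 0.13, and the count was 0. These falls follow from pseudocounts near or above the levels. At a mean of 0.01 RPKM and 100 copies, which keeps 5 families, the median of the families kept was 1.16, that of L1_Mus 0.036 and the difference 1.19. With at least 1000 copies the L1Md median was 0.53 and the difference 0.33, since L1Md_Gf is left out. Subtraction of the median family gave 0.26 for the 10 families and 0.020 for L1_Mus. At 3-fold the count was 0. The other 34 summary values stayed within these limits. Of the values of single families under other pseudocounts, 18 stayed and 12 moved. No paired analysis was possible because there is 1 library per condition. The unknown depth limits every value.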
